A study of Mus musculus with 7 samples.

Results

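Plasmacytoid dendritic cells (pDCs) were taken from the inflamed central nervous system of C57BL/6 mice (labelled B6) by their RNA: a cell barcode needed at least 2 UMIs (counted RNA molecules) of Siglech together with at least 1 of Cox6a2 or 2 of Ly6d. At most 1 UMI of the CD3 genes (Cd3d, Cd3e and Cd3g) and at most 20 UMIs of C1qa, C1qb and C1qc per 10000 were allowed. Of 13632 barcodes with at least 200 genes and no more than 10% mitochondrial UMIs, 221 (1.62%) met this rule. Experimental autoimmune encephalomyelitis (EAE), an inflammatory disease used as a model of multiple sclerosis, had been induced in all mice with MOG35-55 peptide, a fragment of a myelin protein. Control mice (Lag3wt, called WT here) and LAG3 deficient mice with a floxed Lag3 gene (Lag3Flox, titled as knockout and called Lag3KO here) were aged and sex matched, with 5 mice per group, and were taken at peak disease with matching scores. The sources used here do not give the Cre line, the deleted exons or the mice that went into each library. Cells were enriched on beads for CD4 (WT_CD4 and Lag3KO_CD4, 2 libraries each) or for CD45 (WT_CD45, 2 libraries, and Lag3KO_CD45, 1 library) and sequenced as droplet 3′ libraries.

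pDCs are a small lineage of bone marrow origin that senses viral and self nucleic acids in endosomes through TLR7 and TLR9 and is known as the main rapid source of type I interferon. The E protein TCF4 (E2-2) sets and keeps their fate against that of conventional dendritic cells, and their large secretory apparatus gives them a plasma cell-like look. In mice they carry SIGLEC-H and BST2 (the antigen of the PDCA-1 antibody) on their surface, and the inhibitory receptor LAG3, a ligand of MHC class II, is known on them as well as on activated T cells.

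The libraries held 4585251 to 18940186 UMIs in 1428 to 2517 barcodes. The CD4 libraries contained Xist (931 to 1018 UMIs per 1000000 UMIs, CPM) and the CD45 libraries none, whereas the Y-linked Ddx3y was at 49.6 to 52.4 CPM in the CD45 libraries and at most 0.178 CPM in the CD4 libraries, so that sort, sex and processing cannot be told apart. The library labelled WT_CD45 2 held 0.191 CPM of Lag3 outside the pDCs, against 12.9 CPM in WT_CD45 1 and 0.108 CPM in Lag3KO_CD45 1, which goes against its label. The label was kept. Shares of pDCs, counts of genes called between classes and the main genotype calls over both sorts are given with and without that library. No pDC barcode was shared between libraries, and any pair of libraries shared at most 12 barcodes. Nothing in the labels ties a library to a mouse, so p-values measure the spread between libraries.

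Regulatory sequence is shown for 3 genes whose RNA marks these cells and which are read throughout: Siglech, the receptor that chose them, Klk1, a tissue kallikrein, and Ccr9, the receptor for the gut and thymus chemokine CCL25. The sequences are the 250 bases before the start site in RefSeq (GRCm38.p6), at chr7:55767934-55768183, chr7:44225110-44225359 and chr9:123766961-123767210, all on the plus strand. Capitals mark the E-box CANNTG, the letters that E proteins such as TCF4 bind, which as a pattern reads alike on both strands.
Siglech: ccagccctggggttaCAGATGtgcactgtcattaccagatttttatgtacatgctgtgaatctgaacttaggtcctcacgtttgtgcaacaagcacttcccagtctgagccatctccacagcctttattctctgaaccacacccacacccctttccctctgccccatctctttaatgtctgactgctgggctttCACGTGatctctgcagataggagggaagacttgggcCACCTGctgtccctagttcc
Klk1: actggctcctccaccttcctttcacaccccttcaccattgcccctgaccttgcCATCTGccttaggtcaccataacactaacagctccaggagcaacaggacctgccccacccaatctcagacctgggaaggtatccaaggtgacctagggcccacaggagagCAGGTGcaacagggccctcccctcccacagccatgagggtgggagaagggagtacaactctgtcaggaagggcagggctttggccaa
Ccr9: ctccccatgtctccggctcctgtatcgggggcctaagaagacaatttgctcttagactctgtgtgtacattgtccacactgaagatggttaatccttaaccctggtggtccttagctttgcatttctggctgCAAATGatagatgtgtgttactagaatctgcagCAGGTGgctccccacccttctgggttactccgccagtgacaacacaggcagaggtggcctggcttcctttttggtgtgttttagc
The Siglech window held 3 E-boxes, beginning 235, 56 and 20 bases before the start, Klk1 held 2 (197 and 87 bases before it) and Ccr9 held 2 (118 and 85 bases before it). Each of the 3 windows held the E-box CAGGTG or its reverse complement. The RefSeq start of Ccr9 lies 88771 bases inside the longest annotated gene model, so its window is that of the RefSeq transcript. Such matches describe letters and are not measured binding: 66.0% of 27025 promoters of this length held at least 1 CANNTG, against 68.8% of the 32 with an entry among the 44 genes of a pDC surface and identity list and 80% of 15 of 18 pDC lineage regulators. CAGGTG was in 17.1% of all promoters, 28.1% of those of the identity list and 20% of those of the regulators.

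By sort, the CD45 libraries held 60 pDCs in WT_CD45 1, 57 in that labelled WT_CD45 2 and 82 in Lag3KO_CD45 1, which were 2.58% (95% Clopper-Pearson interval 1.98 to 3.31), 2.55% (1.94 to 3.29) and 3.26% (2.60 to 4.03) of their barcodes. The CD4 libraries held 7 (0.366%, 0.147 to 0.753) and 4 (0.290%, 0.0792 to 0.742) in WT_CD4 and 7 (0.479%, 0.193 to 0.985) and 4 (0.221%, 0.0603 to 0.566) in Lag3KO_CD4. These intervals cover counting error only. Most pDCs, 199 of 221, thus came from the CD45 libraries, and all intervals of CD45 libraries lay above those of CD4 libraries, a gap that the bead selection can set. The sort-adjusted difference of Lag3KO minus WT was 0.290 percentage points (two-sided exact permutation within sort, p = 0.167, where 0.0556 is the smallest p the 18 arrangements allow). Within the CD45 libraries it was 0.692 points (exact p = 0.333, the smallest p of 3 arrangements) and within the CD4 libraries 0.0221 points (exact p = 1.0, 6 arrangements, smallest p 0.167). Leaving out the library labelled WT_CD45 2 gave 0.239 points (exact p = 0.5). None of these arrangements can give a p under 0.05, so the tests do not decide on a difference. The share of Lag3KO_CD45 1 lay above the WT_CD45 mean of 2.57% ± 0.0254 (SD, n = 2), while its interval overlapped those of both WT_CD45 libraries.

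**Figure D1:**
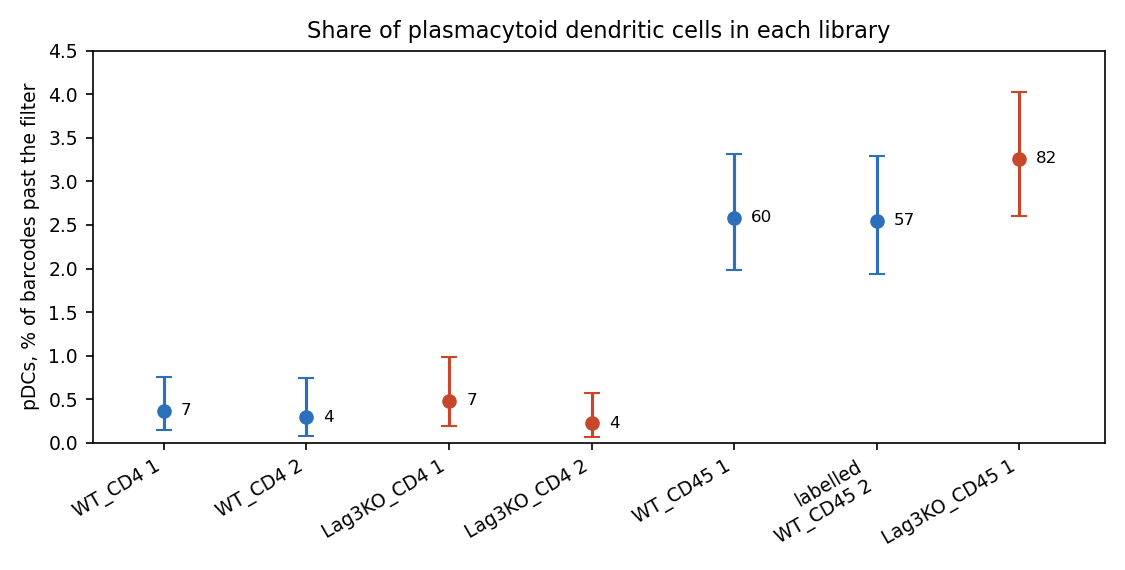
Share of barcodes (%) that met the pDC rule in each of the 7 libraries, with 95% Clopper-Pearson intervals and the number of pDCs beside each point. The 3 CD45 libraries lie between 2.55% and 3.26% and the 4 CD4 libraries between 0.221% and 0.479%.

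The genes of the rule were the values that chose the cells and are given as a description. In the order WT_CD45 1, the library labelled WT_CD45 2, then Lag3KO_CD45 1, used for every CD45 triplet from here on, Siglech stood at 1548, 1885 and 1770 CPM, Cox6a2, a muscle-type subunit of cytochrome c oxidase, at 2048, 1747 and 2055 CPM, and Ly6d, a surface protein of early B lineage cells, at 4800, 5409 and 4684 CPM. Cox6a2 was seen in 208 pDCs, at least 2 UMIs of Ly6d in 212 and both in 199. Just inside the threshold, 9 pDCs had 2 UMIs of Siglech and 15 had 3. Just outside it, 14 barcodes met every other condition with 1 UMI of Siglech, and 22 had enough Siglech but lacked Cox6a2 and Ly6d. In the CD45 libraries the 12 with 1 UMI of Siglech held 1954 CPM of Bst2, 449 CPM of Tcf4 and 4648 CPM of Lyz2, a lysozyme of monocytes and macrophages, against 4637, 837 and 1015 CPM in the 199 pDCs. The limits on CD3 and C1q removed 158 of 379 barcodes that otherwise met the rule: 33 by CD3 only, 51 by C1q only and 74 by both.

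Of the markers that the rule did not use, Bst2 was at 4577, 4401 and 4875 CPM in pDCs, Irf8, a transcription factor needed for dendritic cell development, at 3049, 3123 and 3363 CPM, and Tcf4 at 724, 953 and 853 CPM. Defining genes of other cells were read beside them. The erythroid list of 6 genes was at 0 in the pDCs of every CD45 library, and a list of 8 T cell genes summed to 97.1, 46.9 and 85.9 CPM (1 to 3 genes at 0) against 591, 760 and 721 CPM in all other barcodes. The 7 B cell genes summed to 235, 97.5 and 91.4 CPM in pDCs (1 to 3 at 0) against 93.8, 111 and 131 CPM, so that in WT_CD45 1 the sum in pDCs was above that of the other barcodes. The 12 monocyte and macrophage genes summed to 1289, 3675 and 1482 CPM in pDCs, highest in the library labelled WT_CD45 2, against 25369, 27146 and 28146 CPM in all other barcodes. Their sum was at most 13.5% of that in the other barcodes.

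For comparison, 3 other classes were gated in the same CD45 libraries: 71 type 1 conventional dendritic cells (cDC1, Xcr1 and Clec9a), 205 migratory dendritic cells (Ccr7 and Fscn1) and 159 B cells (Cd79a with Ms4a1 or Cd79b). Median depth was 5181, 4546 and 4231.5 UMIs in pDCs, 7207 to 9519 in cDC1, 3880.5 to 4407 in migratory dendritic cells and 3136 to 3459 in B cells. Counts were summed per library and class and tested with edgeR's quasi-likelihood test with the library as a block. Gate genes were left out of the counts, and differences are log2 of pDCs over the other class ± SE with Benjamini-Hochberg adjusted p over all tested genes. Against cDC1, 1021 of 3259 genes (31.3%) passed an adjusted p of 0.05, 16% higher and 15.4% lower in pDCs. Against migratory dendritic cells 2200 of 3997 passed (55%, with 28.1% higher and 26.9% lower), and against B cells 1082 of 3082 (35.1%, with 17.7% higher and 17.4% lower). The median difference over all genes was 0.03, 0.05 and 0.02. Leaving out the library labelled WT_CD45 2 gave 963, 2012 and 907 called genes. Of 2832 genes tested in all 3, pDCs were higher than every class in 266 (9.39%) and lower in 78 (2.75%). Because the cells were chosen by their RNA, and a gene present mainly in pDCs passes the count filter only where it differs, counts within a gene list describe the list and are no further evidence that these cells are pDCs. Each list count below is to be read beside the shares of all genes given here for the same class.

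**Figure D2:**
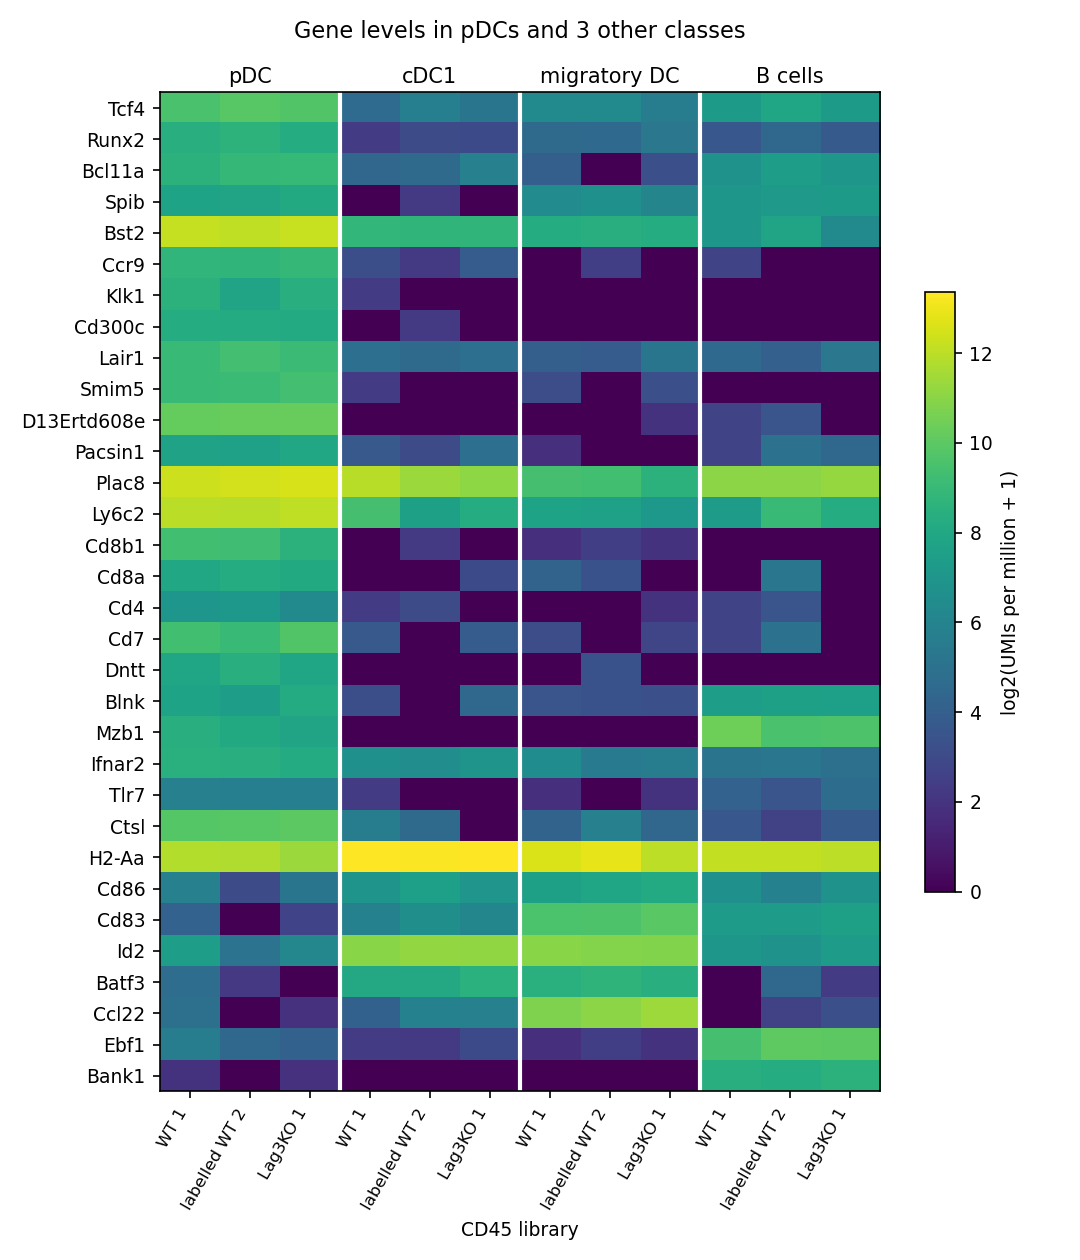
Level of 32 genes, as log2(CPM + 1), in pDCs, cDC1, migratory dendritic cells and B cells of the 3 CD45 libraries, 1 column per class and library. Columns of 1 class are alike across libraries, with Bst2 at 4401 to 4875 CPM in pDCs and at 80.3 to 457 CPM in the other classes.

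Among the lineage regulators, Tcf4 was higher in pDCs than in every class. In cDC1 it was at 24.7, 54.2 and 35 CPM, in migratory dendritic cells at 82.9, 83.2 and 49.5 CPM and in B cells at 155, 228 and 152 CPM, so that pDCs lay above every other library of every class. The differences were 4.29 ± 0.20 (edgeR adjusted p = 2.53e-07), 3.28 ± 0.18 (2.74e-08) and 1.88 ± 0.16 (4.99e-10). Runx2, a Runt factor that pDCs need to leave the bone marrow, was at 347, 394 and 305 CPM, higher by 5.59, 3.31 and 4.12 than in cDC1, migratory dendritic cells and B cells. Bcl11a, a zinc finger regulator shared by B cells and pDCs, was at 388, 484 and 493 CPM and higher by 3.73, 5.25 and 1.30. Spib, an Ets factor of B cells and pDCs, was at 215, 224 and 277 CPM and higher than in both dendritic cell classes (6.72 and 1.26), whereas the difference from B cells, which held 132 to 156 CPM, was 0.34 ± 0.21 (edgeR adjusted p = 0.219).

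The regulators of conventional dendritic cells stood low. Id2, an inhibitor of E proteins that drives the conventional fate, was at 171, 32.5 and 72 CPM in pDCs and at 2061, 2330 and 2274 CPM in cDC1, lower by 4.78 ± 0.32 in pDCs than in cDC1, by 4.64 ± 0.25 than in migratory dendritic cells and by 1.01 ± 0.31 than in B cells. Batf3, which cDC1 need, had 10 UMIs in all 199 pDCs. Irf7, the interferon-inducible factor behind large interferon-α output, was at 480, 303 and 471 CPM. It was higher in pDCs than in migratory dendritic cells (1.41 ± 0.27) and B cells (2.15 ± 0.26) but lower than in cDC1 (-0.52 ± 0.17, edgeR adjusted p = 0.0355). Of the 18 listed regulators, 7 of 15 tested were higher and 4 lower against cDC1, 10 of 17 higher and 6 lower against migratory dendritic cells, and 6 of 15 higher and 2 lower against B cells. The list medians were -0.24, 1.26 and 0.66.

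Surface and identity genes were the most uniform group. Of 44 listed, 43 were in the files and all 43 had a UMI in pDCs; 35 of 36 tested were higher than in cDC1, 37 of 37 than in migratory dendritic cells and 34 of 36 than in B cells, and 0 were lower. The list medians were 4.90, 4.69 and 4.19, and 4.37, 4.54 and 4.07 with genes at 0 in the other class set to a floor of 3 UMIs. D13Ertd608e, an uncharacterised gene, was at 1192, 1228 and 1216 CPM and in 97.5% of pDCs, with 0 UMIs in cDC1, at least 260.1-fold higher against that floor. Ccr9 was at 441, 433 and 468 CPM and in 75.9% of pDCs, and was higher by 5.60 ± 0.30, 8.05 ± 0.42 and 7.39 ± 0.46 than in cDC1, migratory dendritic cells and B cells. Klk1 was at 380, 224 and 332 CPM and in 44.7% of pDCs, and its neighbour in the kallikrein family Klk1b27 was at 112, 130 and 163 CPM. With 0 UMIs of Klk1 in migratory dendritic cells and B cells, pDCs were at least 100.3-fold and at least 63.6-fold higher. Kallikrein genes are near-identical to one another, so reads may have been divided among them.

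Further named genes had 0 UMIs in at least 1 other class. Paqr5, a membrane progestin receptor, was at 165, 130 and 186 CPM and at 0 in all 3 classes, at least 34.9-fold, 51.3-fold and 32.5-fold higher than in cDC1, migratory dendritic cells and B cells. Atp1b1, a subunit of the sodium pump, was at 483, 527 and 418 CPM, and Cdh5, the cadherin of endothelial junctions, at 147, 173 and 130 CPM, at least 101-fold and 31.9-fold higher than in cDC1. Lefty1, a secreted inhibitor of Nodal signalling, was at 265, 249 and 366 CPM and at least 93.8-fold higher than in migratory dendritic cells. Smim5, a small membrane protein seen in 81.9% of pDCs, was at 533, 545 and 648 CPM and at least 116-fold higher than in B cells.

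Genes that other classes carried more strongly set the other edge. Against cDC1, the 10 named genes that were lower in pDCs included Naaa, which hydrolyses N-acylethanolamines, Itgae, the CD103 integrin, and the chemokine Ccl17. Against migratory dendritic cells they included the chemokine Ccl22, Tnfrsf9, which encodes the costimulatory receptor 4-1BB, and the metallothionein Mt2, and against B cells Bank1, an adaptor of B cell receptor signalling, and Jchain. pDC levels of Jchain, the joining chain of secreted antibodies, were 2.94, 3.61 and 0 CPM.

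Inhibitory receptors and their adaptors, through which pDC output is known to be held back, were mostly higher in pDCs. Lair1, a collagen receptor, was at 539, 653 and 548 CPM, with at most 38 CPM in any library of another class, and was higher by 4.29 ± 0.21, 4.40 ± 0.25 and 4.05 ± 0.26. Cd300c was at 306, 300 and 288 CPM. Tyrobp, the DAP12 adaptor that carries the signal of SIGLEC-H, was at 5801, 5365 and 6160 CPM and higher by 1.86 ± 0.13, 2.02 ± 0.09 and 3.19 ± 0.10. Of 25 such genes listed, 24 were in the files; 7 of 12 tested were higher and 0 lower against cDC1, 9 of 14 higher and 3 lower against migratory dendritic cells, and 8 of 13 higher and 2 lower against B cells.

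Lag3 itself, an inhibitory receptor gene at 6:124904361-124911705 (GRCm38, minus strand), was read in pDCs library by library. In the CD4 libraries, pDCs held 7 UMIs (343 CPM, exact Poisson 95% interval 138 to 707) in WT_CD4 1 and 11 (663 CPM, 331 to 1186) in WT_CD4 2, and 0 in both Lag3KO_CD4 libraries. In the CD45 libraries they held 69 (203 CPM, 158 to 257) in WT_CD45 1 and 1 (3.61 CPM) in the library labelled WT_CD45 2, and Lag3KO_CD45 1 had 0. The WT_CD4 level was at least 6.97-fold higher than that of Lag3KO_CD4 (floor of 3 UMIs over the group), and WT_CD45 1 was at least 24.4-fold higher than Lag3KO_CD45 1 (floor of 3 UMIs in the library). The deleted exons are unknown here, so a 3′ tag measures Lag3 RNA and not the deletion.

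A UMI of Lag3 was found in 40 of 60 pDCs of WT_CD45 1 (66.7%, Clopper-Pearson 53.3 to 78.3), and in 40% once every cell was thinned to 2000 UMIs, with at most 4 UMIs in a cell. In the same library it was in 1 of 23 cDC1 (4.35%), 2 of 80 migratory dendritic cells (2.5%) and 0 of 43 B cells, at median depths of 9519, 4407 and 3459 UMIs. The library labelled WT_CD45 2 had it in 1 of 57 pDCs (1.75%) and Lag3KO_CD45 1 in 0 of 82, where a count of 0 (floor of 3 cells of 82) allows up to 3.66% of cells with a UMI, which does not limit the share of cells that express the gene. In WT_CD45 1, pDCs thus held 22.7% of the Lag3 UMIs of the library (69 of 304) with 1.84% of its UMIs. In WT_CD4 1 and WT_CD4 2 they held 2.47% (7 of 283) and 10.4% (11 of 106) of Lag3 UMIs with 0.362% and 0.369% of all UMIs.

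**Figure D3:**
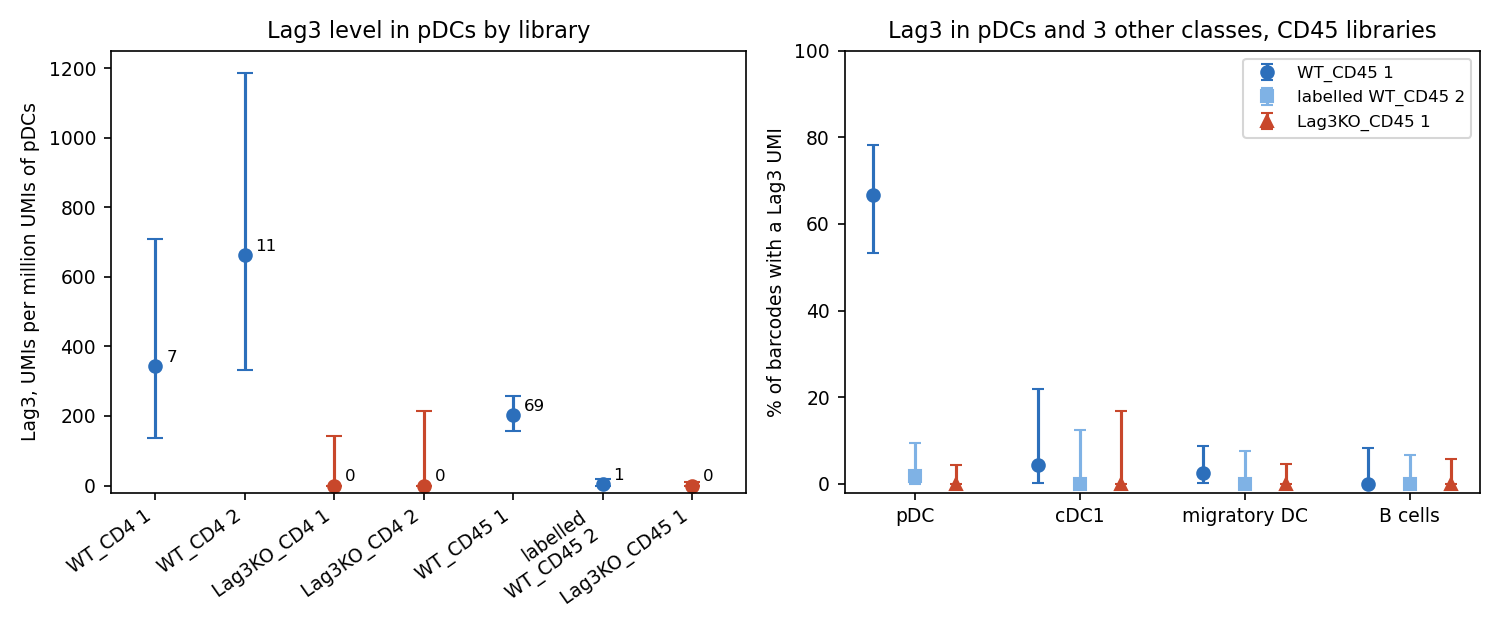
Left, Lag3 level (CPM) in the pDCs of each library with exact Poisson 95% intervals and UMI counts; right, the percentage of barcodes with a Lag3 UMI in pDCs, cDC1, migratory dendritic cells and B cells of the 3 CD45 libraries. pDCs of WT_CD45 1 stand at 66.7%, whereas those of the library labelled WT_CD45 2 and of Lag3KO_CD45 1 stand at 1.75% and 0.

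The nucleic acid sensing machinery was carried unevenly. Tlr7, the endosomal receptor for single-stranded RNA, was at 55.9, 54.2 and 52.6 CPM and had a UMI in 23.1% of pDCs, against 1.41% of cDC1, 0.976% of migratory dendritic cells and 6.29% of B cells. It was higher in pDCs than in cDC1 (4.64 ± 0.77) and migratory dendritic cells (4.22 ± 0.59), and its difference from B cells was 1.18 ± 0.48 (edgeR adjusted p = 0.0578). Tlr9, the receptor for CpG DNA, had 3 UMIs in all 199 pDCs and was not testable at this depth. The partners of these receptors were seen more widely. Unc93b1, which escorts TLR7 and TLR9 to endosomes, was at 668, 574 and 803 CPM and higher by 0.87 ± 0.13, 1.97 ± 0.16 and 0.78 ± 0.15. Ctsl, an endosomal protease, was at 904, 957 and 1003 CPM and in 93.0% of pDCs, and was higher by 4.93 ± 0.34, 4.82 ± 0.24 and 6.15 ± 0.27. Irf5, which acts below these receptors, was lower than in cDC1 (-1.94 ± 0.17) and migratory dendritic cells (-1.48 ± 0.18), and Zbp1, a sensor of Z-form nucleic acids, was lower than in all 3 classes (-1.88, -1.49 and -1.27). Of 29 sensing genes in the files, 5 of 14 tested were higher and 4 lower against cDC1, 7 of 15 higher and 3 lower against migratory dendritic cells, and 5 of 14 higher and 1 lower against B cells, with list medians of 0.21, 0.57 and 0.67.

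No interferon ligand RNA was found. Of 20 type I and type III interferon genes in the files, 0 had a UMI in the 221 pDCs, whose counts sum to 1057692 UMIs. A count of 0 allows up to 1.36% of pDCs with a UMI and 2.84 CPM, which limits cells with a UMI at this depth and not cells that express a ligand. The receptor for type I interferon was present: Ifnar1 was at 132, 170 and 152 CPM and higher by 1.04, 1.33 and 1.58, and Ifnar2 was at 353, 347 and 296 CPM and higher by 1.53 ± 0.19, 2.12 ± 0.20 and 2.91 ± 0.27.

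Interferon-induced genes did not move as a block. Ly6a, the Sca-1 antigen, was at 2761, 2582 and 3327 CPM and higher than in all 3 classes (1.60 ± 0.10, 2.79 ± 0.15 and 0.87 ± 0.11), and Bst2 and Ly6e were also higher than in each. Isg15, a ubiquitin-like protein, was at 288, 282 and 180 CPM, lower than in cDC1 (-0.83 ± 0.19) and migratory dendritic cells (-1.82 ± 0.19) and higher than in B cells (1.54 ± 0.28). Among 35 genes of a type I interferon response list, 4 of 20 tested were higher and 6 lower against cDC1, 6 of 23 higher and 9 lower against migratory dendritic cells, and 8 of 16 higher and 1 lower against B cells, with list medians of -0.06, 0.00 and 0.54. Over all genes, 16% were higher and 15.4% lower against cDC1, 28.1% and 26.9% against migratory dendritic cells, and 17.7% and 17.4% against B cells. The interferon-γ list leaned one way against dendritic cells: 0 of 14 tested were higher and 11 lower against cDC1, and 0 of 17 higher and 14 lower against migratory dendritic cells (medians -1.27 and -1.61). Cxcl9, a chemokine that draws CXCR3-bearing T cells, was at 29.4, 3.61 and 38.8 CPM in pDCs and at 193, 395 and 315 CPM in cDC1 (-3.69 ± 0.41). Against B cells, 1 of 10 was higher and 3 were lower.

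Antigen presentation genes of class II were lower in pDCs. H2-Aa, the α chain of I-A, was at 3635, 3481 and 2584 CPM in pDCs, at 10515, 9965 and 10292 CPM in cDC1, at 6236, 7361 and 4224 CPM in migratory dendritic cells and at 4435, 4544 and 4115 CPM in B cells. Every pDC library lay below the other classes of the same library, by 1.84 ± 0.10, 1.12 ± 0.09 and 0.82 ± 0.09. H2-Ab1, H2-Eb1 and Cd74, the invariant chain, were likewise lower than in each class. Of 15 class II genes in the files, 12 of 14 tested were lower and 1 higher (Ctsh, a cathepsin) against cDC1, 7 of 11 lower and 4 higher against migratory dendritic cells (2 higher without the library labelled WT_CD45 2), and 9 of 13 lower and 2 higher against B cells, with medians of -1.61, -0.50 and -0.82. Class I genes divided by partner: 5 of 16 tested were higher and 7 lower against cDC1, and 8 of 17 higher and 2 lower against B cells. H2-K1, at 2249, 2087 and 2196 CPM, was higher than in cDC1 (0.80 ± 0.10) and B cells (0.31 ± 0.11) and lower than in migratory dendritic cells (-0.72 ± 0.08), where 14 of 17 tested class I genes were lower in pDCs and 0 higher.

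Costimulatory genes were scarce. Cd86 was at 55.9, 7.22 and 36 CPM and lower than in each class (-2.23, -3.01 and -1.85). Cd83, a marker of mature dendritic cells, had 8 UMIs in 199 pDCs, against 772, 777 and 970 CPM in migratory dendritic cells (-6.88 ± 0.31). Of 25 activation genes, 4 of 5 tested were lower against cDC1, 16 of 16 against migratory dendritic cells and 3 of 4 against B cells, and 0 were higher. Immediate early genes, which rise on stimulation and during cell isolation, were mostly lower too, in 12 of 15 tested against cDC1, 9 of 13 (1 higher) against migratory dendritic cells and 7 of 14 (2 higher) against B cells. Junb was at 565, 408 and 648 CPM, and lower by 0.98 ± 0.16, 1.44 ± 0.13 and 1.48 ± 0.15. The 22 cell cycle genes summed to 1009, 664 and 978 CPM in pDCs against 1111, 1497 and 1175 CPM in all other barcodes, mostly from Tubb5, a tubulin, and Hmgb2, a chromatin protein. Mki67 had 5 UMIs and Top2a 10 in 199 pDCs, the granule gene Gzmb had 5 and Prf1 had 0.

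Of the chemokines, Ccl4, a chemokine that draws monocytes and T cells, was the one that was higher in pDCs than in every class, at 356, 300 and 296 CPM and in 44.2% of cells. It was higher by 1.75 ± 0.31 than in cDC1 (edgeR adjusted p = 0.00161), by 3.87 ± 0.27 than in migratory dendritic cells and by 3.17 ± 0.30 than in B cells. Ccl5, another T cell chemokine, was at 633, 343 and 346 CPM and higher by 0.78 ± 0.16 than in cDC1 (adjusted p = 0.00359), lower by 5.48 ± 0.17 than in migratory dendritic cells and not called against B cells (0.07 ± 0.22, edgeR adjusted p = 0.833). A single barcode held 107 of the 215 Ccl5 UMIs of WT_CD45 1 and 87 of the 125 of Lag3KO_CD45 1. Of the chemokine list, 5 of 9 tested were lower and 2 higher against cDC1, 8 of 11 lower and 1 higher against migratory dendritic cells, and 0 of 4 lower and 1 higher against B cells.

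Homing receptors were broadly carried. Besides Ccr9, the hyaluronan receptor Cd44 was higher than in each class, at 244, 184 and 238 CPM in pDCs. Of 22 such genes in the files, 8 of 14 tested were higher and 1 lower against cDC1, 12 of 15 higher and 3 lower against migratory dendritic cells, and 7 of 15 higher and 2 lower against B cells. Flt3, the receptor whose ligand drives dendritic cell development, was at 132, 162 and 125 CPM, higher than in B cells (4.85 ± 0.55) and lower than in migratory dendritic cells (-0.63 ± 0.17), with a difference of -0.08 ± 0.21 from cDC1. Csf2rb2, the mouse β chain of the interleukin-3 receptor, was at 141, 134 and 152 CPM and higher than in each class (2.13 ± 0.32, 0.94 ± 0.26 and 4.89 ± 0.52).

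The secretory machinery was higher than in migratory dendritic cells for most of its genes. Of 40 listed genes of the endoplasmic reticulum and secretion, 34 of 38 tested were higher and 2 lower there (median 1.40), against 16 of 37 higher and 3 lower for cDC1 (0.47) and 17 of 37 higher and 2 lower for B cells (0.45). Sec61b, a subunit of the translocation channel, was at 1307, 1170 and 1388 CPM, higher by 0.68 ± 0.11, 0.86 ± 0.12 and 0.89 ± 0.13. Xbp1, the regulator of secretory expansion, was at 344, 296 and 407 CPM, higher by 0.86 ± 0.18, 2.30 ± 0.18 and 1.42 ± 0.25. Mzb1, a chaperone of plasma and marginal zone B cells, was at 336, 278 and 222 CPM and in 51.3% of pDCs, with 0 UMIs in both dendritic cell classes (at least 59.5-fold and 87.4-fold higher). B cells held more of it, at 1352, 727 and 798 CPM (-2.13 ± 0.15).

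Part of the B lymphoid programme was present and part absent. Dntt, the terminal transferase of lymphoid progenitors, was at 233, 336 and 238 CPM and in 60.8% of pDCs, with 0 UMIs in B cells and cDC1 (at least 52.7-fold and 56.7-fold higher). Blnk, an adaptor of B cell receptor signalling, was at 218, 181 and 296 CPM, with a difference of -0.04 ± 0.21 from B cells (edgeR adjusted p = 0.892) and higher levels than in cDC1 and migratory dendritic cells (4.58 ± 0.44 and 4.33 ± 0.30). By contrast, Ebf1, the B lineage commitment factor, was at 47.1, 21.7 and 16.6 CPM and lower by 5.33 ± 0.25 than in B cells. It was seen in 3.52% of pDCs. Recombinase Rag1 had 0 UMIs. Of 21 listed genes in the files, 3 of 12 tested were higher and 7 lower against B cells, and 7 of 9 and 7 of 10 were higher against cDC1 and migratory dendritic cells.

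The spread of genes among pDCs was uneven. With each cell thinned to 2000 UMIs, the ratio of variance to mean, which is 1 for pure counting, had a median of 0.987 over 2532 genes. As the median of the 3 CD45 libraries it was largest for Lyz2 (9.93), Ccl5 (8.24), Cd74 (6.67), Malat1 (6.21) and Isg15 (5.82), followed by Tmsb4x (5.54), Ly6c2 (5.04), Ifitm1 (4.78), H2-Aa (4.45) and H2-Ab1 (4.24). The order differed by library: the ratio was 1.90, 27.0 and 9.93 for Lyz2, 8.24, 3.81 and 23.2 for Ccl5, and 5.82, 6.22 and 1.70 for Isg15. Lyz2 had a UMI in 54 of 60, 43 of 57 and 56 of 82 pDCs, with medians of 2, 1 and 1 UMIs. Its high counts lay in few cells, with 506 of the 573 UMIs of the library labelled WT_CD45 2 in 3 barcodes. Ly6c2, a Ly6C gene of most peripheral pDCs, was by contrast present nearly throughout, with a median of 16 UMIs and 0 in only 3 of 199 cells. Isg15 was absent from 131 of 199 and reached 33 UMIs in 1 cell. Cd74 ran from 0 to 310 UMIs with a median of 38.

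The T cell coreceptor genes also divided pDCs. Cd8b1, the CD8β gene at 6:71322788-71337494 (GRCm38, plus strand), had a UMI in 113 of 199 cells and 5 or more in 44, Cd8a in 87 cells and Cd4 in 65. Both CD8 genes were seen in 51 cells, and Cd8b1 with Cd4 in 45. In the other classes Cd8a was at no more than 37.2 CPM in any library and Cd8b1 had 0 UMIs in B cells, while the pDC rule allowed at most 1 UMI of CD3. Ccr9 was seen in 151 cells, Klk1 in 89 and both in 72, and Ccl4 in 88, Ccl5 in 74 and both in 35. These counts move with depth, which differed between cells, and no share was tested.

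**Figure D4:**
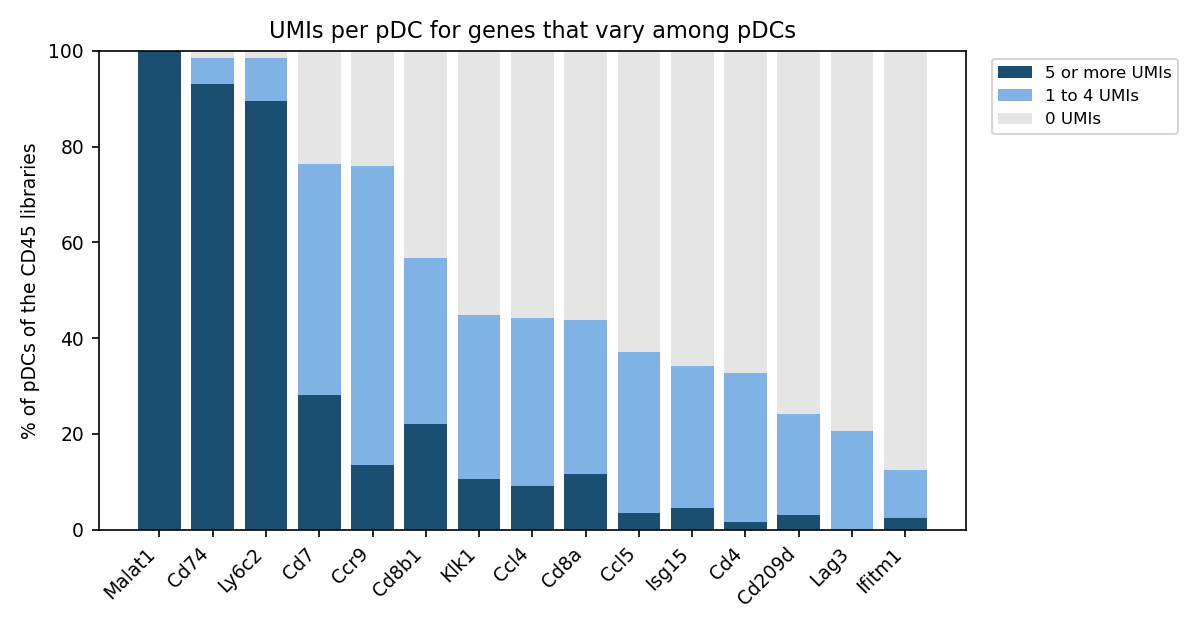
Percentage of the 199 pDCs of the CD45 libraries with 0, 1 to 4, or 5 or more UMIs of each of 15 genes. Malat1 has 5 or more in all 199 and Ly6c2 in 178, whereas Isg15 has 0 in 131 and Lag3 has 0 in 158.

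Between genotypes, few genes of pDCs were called. With simulated counts, the fit over both sorts recovered 1 of 95 tested genes changed 2-fold and 35 of 92 changed 4-fold. Genes not called may therefore still differ. Libraries with at least 5 pDCs entered the fit (WT_CD4 1, Lag3KO_CD4 1 and the 3 CD45 libraries), with the sort as a term; WT_CD4 2 and Lag3KO_CD4 2, with 4 pDCs each, were left out of it. edgeR called 13 of 5174 genes (0.251%): 2 higher in Lag3KO (0.0387%) and 11 lower (0.213%). DESeq2 called 0 (21 at an unadjusted p under 0.05), and edgeR called 0 with all libraries that held a pDC (32 unadjusted, of 698 genes tested). A contrast within the CD45 libraries, from a fit of 4 groups, called 22 (0.425%), 2 higher (0.0387%) and 20 lower (0.387%). A test of the difference between the genotype effects of the 2 sorts called 2 genes (0.0387%), 1 in each direction (0.0193%). In this fit of 4 groups only WT_CD45 has 2 libraries, so that the spread behind both counts comes from WT_CD45 1 and the library labelled WT_CD45 2, whose Lag3 level goes against its label, and is assumed for the other 3 groups. The first gene was Lag3, lower by 7.69 ± 1.04 (edgeR adjusted p = 2.09e-10; a fitted value that depends on the prior count, since Lag3KO pDCs held 0 UMIs). It remained called without the library labelled WT_CD45 2 (-8.34, adjusted p = 1.33e-11) and was not called without WT_CD4 1 (adjusted p = 0.255) or Lag3KO_CD45 1 (adjusted p = 0.715), with DESeq2 (0.9999) or with all libraries that held a pDC (0.656).

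The genes that define pDCs did not pass the test between genotypes. Of the identity list 0 of 41 tested were called, and 0 of 15 regulators, 0 of 18 sensing genes, 0 of 21 type I interferon response genes and 0 of 38 secretory genes, against 0.251% of all genes. At that share, counts of 0 in lists of this size do not set these genes apart from the rest. Tcf4 was at 724 and 953 CPM in the WT_CD45 libraries and 853 CPM in Lag3KO_CD45 1, Bst2 at 4577 and 4401 against 4875 CPM, and Ccr9 at 441 and 433 against 468 CPM. For Irf8 the fitted difference was -0.04. A p that misses the threshold over 5 libraries does not show that levels were the same.

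Cd8b1 was the called receptor gene besides Lag3. In the CD45 libraries it was at 645, 603 and 382 CPM and had a UMI in 42 of 60, 34 of 57 and 37 of 82 pDCs (70%, 59.6% and 45.1%; 50%, 43.9% and 32.9% at 2000 UMIs per cell). In the CD4 libraries it was at 540 (11 UMIs, 10 of them in 1 barcode) and 1326 CPM in WT and at 77.7 (2 UMIs) and 0 CPM in Lag3KO. Every Lag3KO library thus lay below every WT library of its sort. The difference was -0.92 ± 0.24 (edgeR adjusted p = 0.0403), and -0.78 ± 0.21 (adjusted p = 0.0702) within the CD45 libraries. All other barcodes of the CD45 libraries held 37.6, 57.0 and 52.6 CPM. The call was lost when any 1 library was left out (adjusted p = 0.0709 to 0.544; -0.99 and 0.217 without the library labelled WT_CD45 2). The Cd8b1 call was also lost with no count filter (edgeR adjusted p = 0.237) and with at least 4 UMIs of Siglech (0.191). The same held with all libraries that held a pDC (0.656) and with the DESeq2 test (0.9999). With only the CD45 libraries the difference was -0.77 and was not called. It was kept with the size factors of DESeq2 (edgeR adjusted p = 0.0458) and without doublet-like barcodes (0.0261). Cd8a, which pairs with Cd8b1, had a fitted difference of -0.14 (adjusted p = 1.0).

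Of 15 class II genes in the files, Cd74 and H2-Eb1 were called lower over both sorts. Over all genes, 11 of 5174 tested (0.213%) were. Cd74 was at 9748, 10174 and 7174 CPM in the CD45 libraries, with a median of 50, 48 and 28 UMIs per pDC, and at 12262 and 15006 CPM in WT_CD4 against 9049 and 5295 CPM in Lag3KO_CD4. All Lag3KO libraries lay below the WT libraries of their sort, and the difference was -0.51 ± 0.11 (edgeR adjusted p = 0.00417). H2-Eb1, the gene of the I-E β chain, was at 1648, 1809 and 1208 CPM in the CD45 libraries and at 1668 and 2109 against 544 and 116 CPM in the CD4 libraries (-0.76 ± 0.17, adjusted p = 0.00604). H2-Aa was called within the CD45 libraries (-0.54 ± 0.13, adjusted p = 0.0202) and not over both sorts (adjusted p = 0.0586). That call was lost with no count filter (0.0714), without doublet-like barcodes (0.109), without WT_CD4 1 (0.255), with at least 4 UMIs of Siglech (0.900) and with DESeq2 (1.0), all adjusted p. All other barcodes of the CD45 libraries held 14388, 14380 and 12313 CPM of Cd74. The calls of Cd74 and H2-Eb1 were lost without the library labelled WT_CD45 2 (-0.49, adjusted p = 0.392, and -0.73, adjusted p = 0.217). They were also lost without Lag3KO_CD45 1 (0.544 for both), without doublet-like barcodes (0.212 and 0.269) and with DESeq2 (0.9999 for both), as was Cd74 without WT_CD45 1 (0.127) and H2-Eb1 without WT_CD4 1 (0.374), all adjusted p. Neither was called without 14 pDCs that carried RNA of another cell type, as given below.

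**Figure D5:**
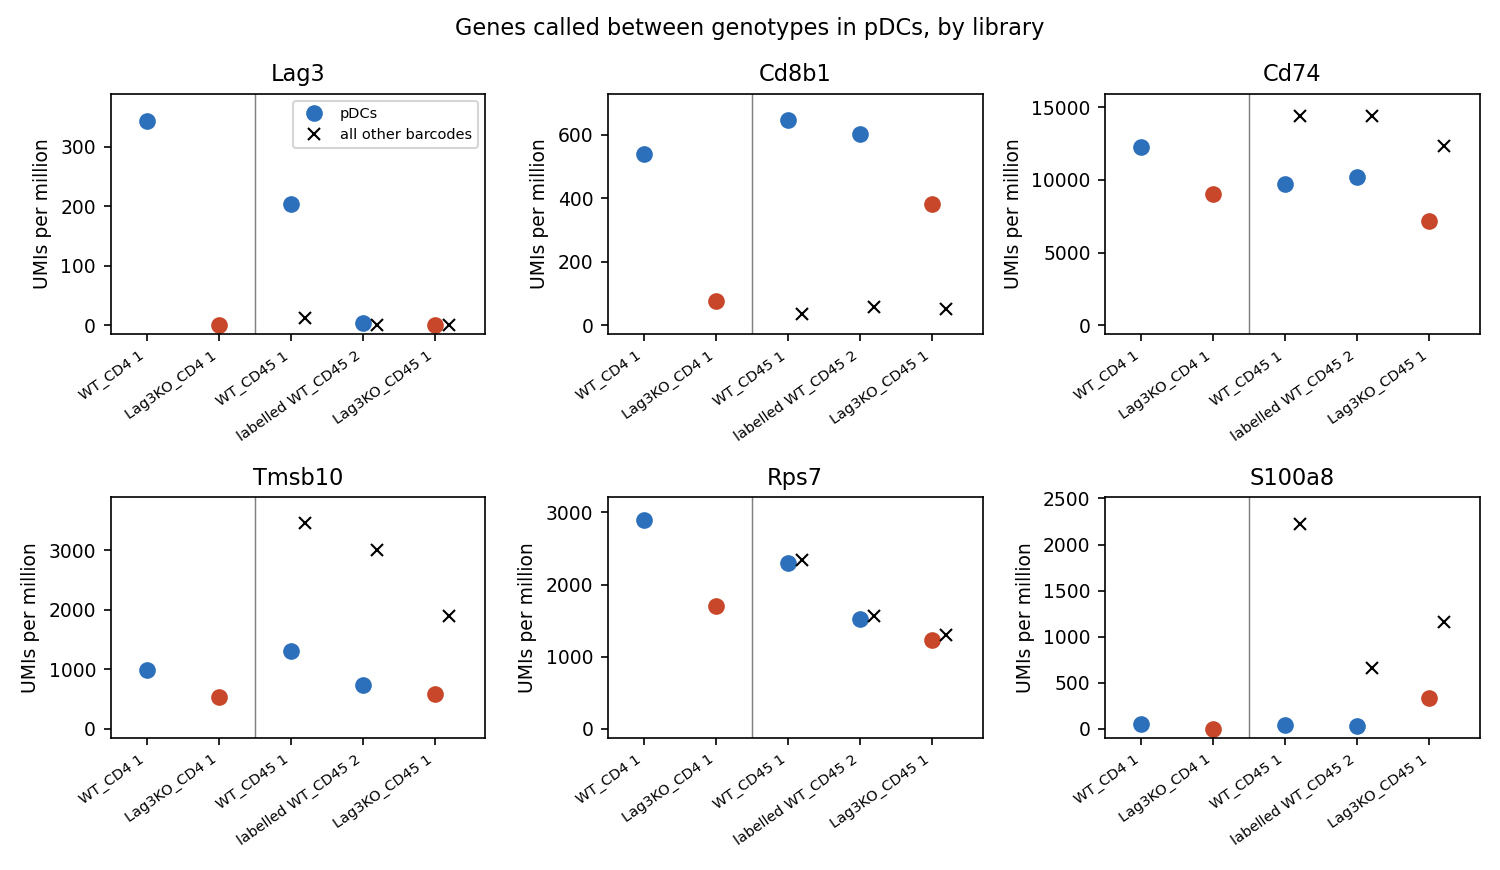
Level (CPM) of Lag3, Cd8b1, Cd74, Tmsb10, Rps7 and S100a8 in the pDCs of the 5 libraries of the fit (dots) and in all other barcodes of the CD45 libraries (crosses). Cd8b1 is at 645 and 603 CPM in the WT_CD45 libraries and 382 CPM in Lag3KO_CD45 1, while the 335 CPM of S100a8 in Lag3KO_CD45 1 come from 111 of 121 UMIs in 1 barcode.

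For other genes called lower, levels in the remaining barcodes are given beside those of pDCs. Rps7, a ribosomal protein gene, was at 2296, 1524 and 1238 CPM in pDCs and at 2335, 1566 and 1301 CPM in all other barcodes (-0.72 ± 0.16, edgeR adjusted p = 0.00478). Gm17430 was at 350, 520 and 188 CPM in pDCs and at 358, 484 and 206 CPM in the others (-1.29 ± 0.28, adjusted p = 0.00396), and Gm10036 at 238, 311 and 114 CPM against 225, 222 and 136 CPM (-1.40 ± 0.32, adjusted p = 0.00478). In each of the 3 genes Lag3KO_CD45 1 stood lowest in pDCs and in the remaining barcodes alike, and the part of the library in these results was not tested. Reads of ribosomal protein genes may also be divided with near-identical copies. Tmsb10, which binds actin monomers, was at 1307, 740 and 593 CPM in pDCs and 3457, 3001 and 1899 CPM in the others (-0.87 ± 0.20, edgeR adjusted p = 0.00959), with 132 of the 444 UMIs of WT_CD45 1 in 1 barcode. For Tmsb10 too, Lag3KO_CD45 1 stood lowest in pDCs and in the others, and the part of the library was not tested. In the CD4 libraries Tmsb10 had 20 and 23 UMIs in WT and 14 and 39 in Lag3KO. The 39 were in Lag3KO_CD4 2, which was left out of the fit and lay above both WT_CD4 libraries. AW112010, an interferon-inducible transcript, was at 153, 296 and 77.6 CPM in pDCs and at 1778, 1837 and 1926 CPM in the others (-1.60 ± 0.36, adjusted p = 0.00478). Its WT levels rested on few barcodes: 3 held 28 of the 52 UMIs of WT_CD45 1, and 3 held 53 of the 82 of the library labelled WT_CD45 2. In the CD4 libraries AW112010 had 1 and 0 UMIs in WT and 0 and 1 in Lag3KO. Without the library labelled WT_CD45 2, Rps7 and Tmsb10 were still called over both sorts, and Gm17430, Gm10036 and AW112010 were not.

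The remaining 4 calls were genes of other myeloid cells and rested on few barcodes. S100a8, a neutrophil calprotectin subunit, was at 41.2, 28.9 and 335 CPM (3.04 ± 0.36, edgeR adjusted p = 1.56e-13), with 111 of the 121 UMIs of Lag3KO_CD45 1 in 1 barcode. Chil3, a chitinase-like protein of monocytes and macrophages, was at 44.1, 10.8 and 305 CPM, with 105 of the 110 UMIs of that library in 3 barcodes. Lyz2 was at 653, 2069 and 546 CPM and Apoe at 494, 1285 and 429 CPM, with 202 of the 356 Apoe UMIs of the library labelled WT_CD45 2 in 1 barcode. In none of these 4 genes did the Lag3KO libraries lie on the same side of WT in both sorts. Without the library labelled WT_CD45 2, S100a8 and Chil3 were still called, and Lyz2 and Apoe were not.

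These values were followed with 14 pDCs left out that held at least 20 UMIs of the monocyte and macrophage list or at least 10 of another list of other cells (4, 4 and 5 in the CD45 libraries and 1 in Lag3KO_CD4 2), an alternative chosen after seeing the data. Of the main calls, 6 of the 12 still tested were called again: Lag3, Cd8b1, Rps7, Gm17430, Gm10036 and Tmsb10. Cd8b1 was at 744, 632 and 404 CPM in the remaining cells of the CD45 libraries (-0.95 ± 0.23, edgeR adjusted p = 0.0229; within the CD45 libraries -0.84 ± 0.21, adjusted p = 0.0157). Cd74 was at 9191, 9463 and 7247 CPM (-0.40 ± 0.12, adjusted p = 0.231), and the difference of H2-Eb1 was -0.55 ± 0.18 (adjusted p = 0.303) and of AW112010 -0.87 ± 0.43 (adjusted p = 0.997). S100a8 then stood at 41.7, 20.7 and 27.7 CPM, a drop that follows from the rule itself, since the neutrophil list is among those used to leave cells out. Ccl5 was called in its place, at 354, 132 and 67.8 CPM (-1.97 ± 0.36, edgeR adjusted p = 0.000131). Ccl3 and Gm10263 were also called lower in Lag3KO. Ifitm1 was called higher (1.44 ± 0.37), at 125, 4.13 and 197 CPM. Among all pDCs, single barcodes had held 48 of the 71 Ifitm1 UMIs of Lag3KO_CD45 1 and 18 of the 24 Ccl3 UMIs of the library labelled WT_CD45 2. Before cells were left out, 3 barcodes held 177 of the 215 Ccl5 UMIs of WT_CD45 1, and only 2 of 60 pDCs held 5 or more. In that library 102 Ccl5 UMIs remained afterwards. The barcode with 107 Ccl5 UMIs was left out. The other barcode with 5 or more was kept and held most of those 102. Whether the Ccl5 call holds without this barcode, or rested on single barcodes in the other libraries, was not tested.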

How the data were processed

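The members and gene lists were chosen with earlier results of these data known. The authors deposited UMI counts per gene and barcode, made with Cell Ranger (version 3.0.2, per the file headers of the CD4 libraries) against GRCm38 (mm10) and with Seurat, per the submitters' processing notes; no cell filter is given in the sources used here. The 27998 genes listed in all 7 libraries were used (28692 are listed in the CD45 libraries). Barcodes needed at least 200 genes and at most 10% mitochondrial UMIs. The rule then gave the pDCs, 624 to 19103 UMIs deep. Doublets were marked by nearest simulated neighbours at 0.8% per 1000 barcodes; 6 pDCs were among them and were kept, with an alternative without them. CPM use all UMIs of a class in a library.

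Counts summed per library were tested with edgeR (TMM, filterByExpr, quasi-likelihood, two-sided, Benjamini-Hochberg over all genes tested, adjusted p under 0.05), and shares with exact permutation within sort. The procedure was tested on simulated data. Alternatives were the size factors of DESeq2, the DESeq2 test, no count filter, at least 4 UMIs of Siglech, no doublets, other minimums of pDCs per library, no library block and leaving out each library. Between genotypes, up to 15 higher and 15 lower genes of smallest p were named. Among the libraries in the fit, the Lag3KO libraries of these genes lay beyond all WT libraries of their sort. Libraries with fewer than 5 pDCs did not count for this. Between classes, the 10 higher and 10 lower of largest difference with at least 50 CPM were named, besides Lag3, the markers, called list members, the leading list members and the 10 most variable genes. Other features named were chosen after their values were seen, and some genes that the rule names are not reported here. The versions were edgeR 4.0.16, DESeq2 1.42.0 and limma 3.58.1 in R 4.3.3, and scikit-learn 1.9.0 and scipy 1.17.1 in Python 3.11.15.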

Additional observations from a re-analysis of the deposited data

Results flagged for a closer look

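For 2 of 5174 genes (0.0387%) the genotype difference in pDCs was not the same in the 2 sorts by edgeR's test of that difference. Actb, the cytoskeletal actin, was at 8534 CPM in WT_CD4 1 and 4233 CPM in Lag3KO_CD4 1 (1 library each) and at 3164, 3080 and 3244 CPM in WT_CD45 1, the library labelled WT_CD45 2 and Lag3KO_CD45 1. The genotype difference in the CD4 libraries minus that in the CD45 libraries was -0.996 ± 0.207 (adjusted p = 0.022), with 87 of the 174 Actb UMIs of WT_CD4 1 in 1 barcode. Malat1, a nuclear long noncoding RNA, was at 16333 and 20001 CPM in WT_CD4 1 and Lag3KO_CD4 1 and at 16520, 19648 and 15101 CPM in the CD45 libraries in the same order (0.623 ± 0.139, edgeR adjusted p = 0.0427). Only WT_CD45 has 2 libraries in this fit, so the spread comes from WT_CD45 1 and the library labelled WT_CD45 2 and is assumed for the other 3 groups. The CD4 side rests on 7 pDCs in each library, and neither gene was called in 6 of the 7 alternatives that could be fitted.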

How the results depend on the processing

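Over both sorts, 13 genes differed between genotypes, and 0 did with DESeq2 (21 at an unadjusted p under 0.05), 29 with at least 20 pDCs per library or with only the CD45 libraries, and 0 with all libraries that held a pDC (698 genes tested, 32 at an unadjusted p under 0.05). Leaving out each library gave 0 to 28, with 0 without Lag3KO_CD45 1 (223 unadjusted), 3 without WT_CD4 1, 6 without the library labelled WT_CD45 2, 13 without WT_CD45 1 and 28 without Lag3KO_CD4 1. Within the CD45 libraries, 22 became 13 with the size factors of DESeq2, 0 with the DESeq2 test (2 unadjusted), 0 with at least 4 UMIs of Siglech (259 unadjusted), 0 with all libraries (15 unadjusted), and 3 to 28 without 1 CD4 library. The 2 differences between sorts became 0 with DESeq2's size factors (300 unadjusted), its test (1), at least 4 UMIs of Siglech (241), no doublets (296), no RNA of other cells (284) and all libraries (22). The direction turned within the CD45 libraries for S100a8 with at least 4 UMIs of Siglech (-0.33) and without RNA of other cells (-0.26), and for Lyz2 without doublets (0.33). Between classes, DESeq2 called 513 genes against cDC1, 1365 against migratory dendritic cells and 581 against B cells, and 140 higher and 36 lower than all 3. The cause was not tested in these cases, except that fewer libraries or genes were fitted where stated.

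Leaving out 1 library gave 865 to 963, 1953 to 2012 and 864 to 921 genes against cDC1, migratory dendritic cells and B cells, with 209 to 226 higher and 60 to 77 lower than all 3, and without the library block 1008, 2176 and 997 were called. No paired analysis was possible between genotypes because their replicate numbers only name libraries. The share difference kept its direction under all alternatives run (0.0221 to 0.692 points). The contrast within the CD45 libraries without any 1 of them, and the difference between sorts with at least 20 pDCs per library or without any 1 library, could not be fitted. At the depth of the pDC sums, 3 UMIs stand for 8.31 to 10.8 CPM in a CD45 library. In a CD4 library they stand for 117 to 181 CPM. A count of 0 allows levels up to these, and lower levels that were seen rest on fewer than 3 UMIs.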
